A study of Rattus norvegicus with 10 samples.

Results

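The genes described here are those of the rat major histocompatibility complex (MHC) and of the machinery that supplies it with peptides. They are every gene of the deposited table whose name starts with RT1-, the symbol of the rat MHC, together with B2m, Cd74, Ciita, Nlrc5, Tap1, Tap2, Tapbp, Psmb8, Psmb9, Psmb10, Erap1 and Ctss. This gave 43 of the 22250 genes, of which 31 carried an RT1 name and 36 lay on chromosome 20. By name, 23 were grouped as class I (the RT1 class I loci, B2m and Nlrc5), 13 as class II (RT1-B, RT1-D and RT1-H loci, Cd74, Ciita and Ctss) and 7 as antigen processing.

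Messenger RNA was sequenced from 10 rat lung libraries, 5 named XBS and 5 named MOD, each numbered 1 to 5. According to the design text, neutrophilic asthma was produced in rats with lipopolysaccharide, which comes from the outer membrane of bacteria, and the egg white allergen ovalbumin, and a formula abbreviated SP was given. The labels expand neither XBS nor MOD, tie neither name to the formula, and state no strain, age, sex or dose for either group. Nothing in them states that each library is a different rat, and every p-value here therefore measures library-to-library spread that could be technical. Besides lung, every library's labels list the human bronchial epithelial line 16HBE, whereas the gene identifiers are those of rat.

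MHC class I molecules present peptides from inside the cell to CD8+ T cells: the proteasome cuts proteins, TAP carries the peptides into the endoplasmic reticulum, tapasin and its partners load them, and beta-2-microglobulin is the light chain of the complex. MHC class II molecules present peptides from endocytosed proteins to CD4+ T cells, mostly on dendritic cells, B cells and macrophages, and their assembly needs the invariant chain Cd74, which cathepsins such as Ctss degrade. Interferon gamma raises both pathways, through the transactivator Ciita for class II and Nlrc5 for class I. In the rat, RT1-A is the classical class I locus, and RT1-B and RT1-D are the classical class II loci. Some of the many other class I loci are near-identical copies whose number differs between strains. The sequences of those other loci were not compared with each other here.

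Promoters of these genes carry known control elements, and the stretches below show them for some of the genes. RefSeq promoter sequences (GRCr8, 250 bases before to 50 after the start, 300 in all) were found for 36 of the 43 genes and were searched on both strands for an X box core (AACNGATG), a Y box (CTGATTGG, the inverted CCAAT box), an interferon-stimulated response element or ISRE (a pair of GAAA repeats with any 2 bases between them) and a kappa B element (GGGGATT followed by CCC). These motifs and windows were chosen after a first scan of the promoters. The shares of promoters with a match are therefore a description, and are not a test against the share of all promoters. Matches of different motifs did not overlap each other, and the pair of ISRE matches in Tapbp overlapped. Among the RT1 class II promoters, 7 of 9 held the Y box, against 3.5% of all 33469 promoters, and 4 of 9 held the X box core, against 2.58% of all promoters. Capitals mark the X box core and the Y box in the class II stretches, printed on the gene's own strand. The first is RT1-Da (chr20:4515285-4515384, plus strand), followed by RT1-Bb (chr20:4604149-4604248, minus), RT1-DOb (chr20:4627554-4627653, minus) and RT1-Db1 (chr20:4560193-4560292, minus). These strands are those of GRCr8 and are opposite to those in the deposited table.
RT1-Da: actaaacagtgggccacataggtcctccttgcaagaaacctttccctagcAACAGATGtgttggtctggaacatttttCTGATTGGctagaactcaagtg
RT1-Bb: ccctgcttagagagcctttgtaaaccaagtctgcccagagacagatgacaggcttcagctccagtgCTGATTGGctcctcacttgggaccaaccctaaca
RT1-DOb: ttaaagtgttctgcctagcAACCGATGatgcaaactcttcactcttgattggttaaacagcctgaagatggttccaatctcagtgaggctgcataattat
RT1-Db1: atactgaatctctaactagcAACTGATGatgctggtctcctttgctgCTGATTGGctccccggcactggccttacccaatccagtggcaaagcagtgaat
In RT1-Da the Y box began 28 bases after the X box core began, in RT1-Db1 27 bases and in RT1-Db2 26 bases. As exact matches, RT1-Bb held the Y box alone and RT1-DOb the X box core alone among these 4 motifs. Near matches were not counted, such as ttgattgg in RT1-DOb and gacagatg in RT1-Bb.

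The promoters of the classical class I pair RT1-A2 and RT1-A1 are given whole. RT1-A2 varied most between libraries of a group, and RT1-A1 overlaps it in the deposited table. Capitals mark the kappa B element and, downstream, the Y box, which lies on the other strand and so reads CCAATCAG. RT1-A2 is at chr20:4872621-4872920 and RT1-A1 at chr20:4906959-4907258, both on the plus strand. At these positions RT1-A1 starts after RT1-A2, whereas in the deposited table it starts before RT1-A2.
RT1-A2: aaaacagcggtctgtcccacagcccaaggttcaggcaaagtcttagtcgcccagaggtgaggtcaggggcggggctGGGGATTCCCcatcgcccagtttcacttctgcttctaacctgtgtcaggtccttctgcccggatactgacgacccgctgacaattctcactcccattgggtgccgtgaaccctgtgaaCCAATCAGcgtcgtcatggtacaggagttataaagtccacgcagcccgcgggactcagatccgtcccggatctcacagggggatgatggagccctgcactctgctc
RT1-A1: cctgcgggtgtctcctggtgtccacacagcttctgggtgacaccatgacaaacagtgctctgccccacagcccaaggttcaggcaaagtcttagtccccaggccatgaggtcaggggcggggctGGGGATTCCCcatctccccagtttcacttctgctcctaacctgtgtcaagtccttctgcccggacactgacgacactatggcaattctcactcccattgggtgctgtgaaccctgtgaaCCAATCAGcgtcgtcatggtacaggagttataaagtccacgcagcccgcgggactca
In a local alignment 232 of 251 columns of this pair were identical (92.4%), with 1 gap column. The kappa B element, like the other motifs, was chosen after the first scan. It was found in 4 of 19 class I promoters (RT1-A1, RT1-A2, RT1-CE4 and RT1-CE10), against 0.114% of all promoters. The ISRE was found in 5 of 6 antigen processing promoters, in 4 of 19 class I promoters and in 0 of 9 RT1 class II promoters, against 3.92% of all promoters. It is shown in capitals for Tap1 (chr20:4668574-4668683, minus strand, where the match is on the other strand) and for B2m (chr3:129549170-129549279, plus strand).
Tap1: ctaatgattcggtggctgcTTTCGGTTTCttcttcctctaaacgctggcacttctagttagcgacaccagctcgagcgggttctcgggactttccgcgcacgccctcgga
B2m: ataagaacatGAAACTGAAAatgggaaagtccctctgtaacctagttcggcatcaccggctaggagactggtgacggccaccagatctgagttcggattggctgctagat
A match is a description of the letters in these windows and was not tied to binding or to a difference in RNA.

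The deposited table held a read count per gene and library, with totals of 11998979 to 15518929 counts per library. The 43 genes took 0.806 to 0.975% of a library's counts in XBS and 0.701 to 0.858% in MOD. Levels are given as CPM, the read count scaled to a library size adjusted by the trimmed mean of M-values,, and levels of different genes are compared only as CPM per kb of gene length. Genes were tested with edgeR's quasi-likelihood test, XBS over MOD, and p-values were adjusted by Benjamini-Hochberg over all 14320 genes that passed a filter on low counts. In these lungs the summed alveolar type 2 markers, led by Sftpc and Sftpa1, stood at 15991 to 32698 CPM in XBS, against 23919 to 30805 CPM in MOD. XBS 5 was the lowest of the 10 in that sum.

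Of the 43 genes, 37 passed the filter and were tested, and edgeR called 0 higher and 0 lower in XBS at an adjusted p of 0.05, where 0.0768% of all genes tested were called (0.0279% higher, 0.0489% lower). At an unadjusted p under 0.05 there were 5 of 37 (13.5%), where 13.2% of all genes tested had one (7.4% with the higher level in XBS). DESeq2 called 1, RT1-N2, where it called 2.58% of the genes it gave an adjusted p, and limma voom called 0. For 0 of the 37 did all libraries of XBS lie on one side of all libraries of MOD, which held for 2.74% of all genes tested. The fitted log2 fold change was above 0 for 25 of 37 (67.6%), where it was for 51.9% of all genes tested, and its median was 0.22 over the 37 and 0.01 over all genes. By group, the median log2 fold change was 0.33 over 11 class II genes, 0.32 over 19 class I genes and -0.04 over 7 antigen processing genes.

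**Figure D1:**
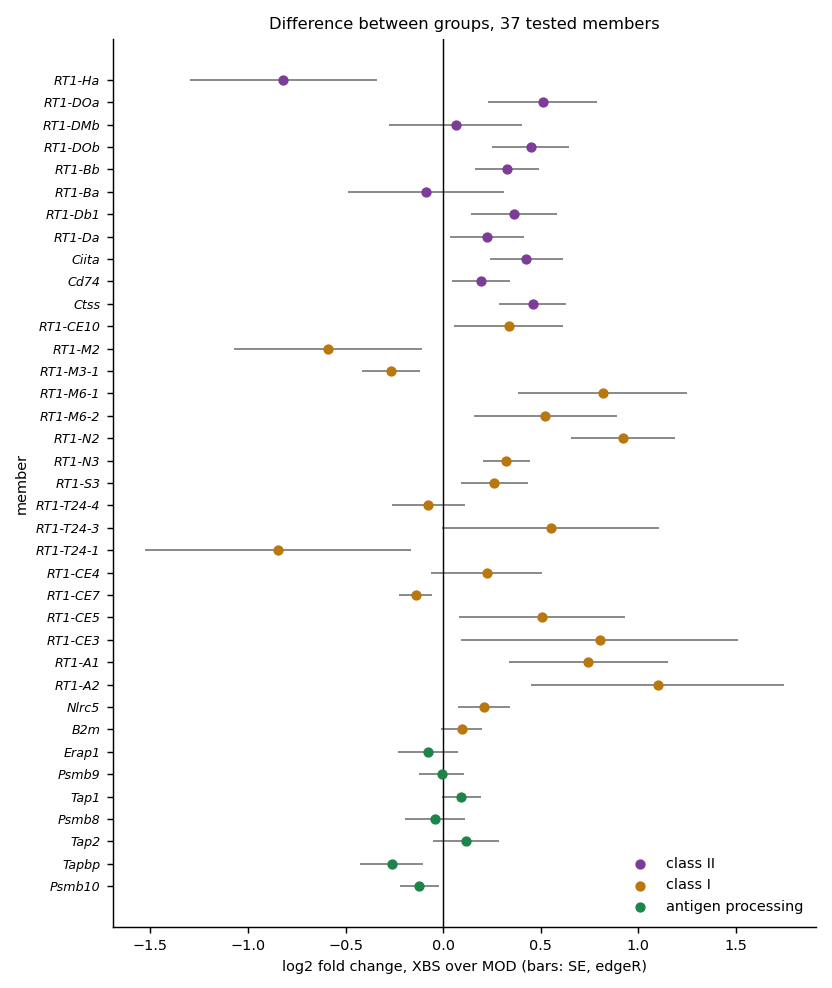
Each row is 1 of the 37 tested genes, the point is its log2 fold change of XBS over MOD and the bar its standard error from edgeR, coloured by group. Most class II and class I points lie to the right of 0 with bars of 0.0847 to 0.708, and the antigen processing points lie close to 0.

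Per kb, the most abundant gene over the 10 libraries was B2m at 1603 CPM per kb, followed by Cd74 at 1486, RT1-Da at 249.6, RT1-S3 at 222 and RT1-T24-4 at 133 CPM per kb. Next came Ctss at 97.5, RT1-Bb at 97.0 and RT1-A2 at 76.9 CPM per kb. Over the 10 libraries B2m ranged from 1416 to 1870.1 and Cd74 from 1196 to 1982 CPM per kb, and RT1-Da from 180.1 to 362 CPM per kb. Of 36 pairs of neighbours in the order of all 37 tested genes, 35 overlapped, and Cd74 with RT1-Da was the pair that did not. At the other end, 6 genes had too few counts to be tested. RT1-M4 had 0 or 1 counts and RT1-M5 0 to 2 counts per library, RT1-DMa 3 to 10, and RT1-CE1 1 to 16. RT1-S2 had 46 counts in XBS 1 and 0 to 5 in the other libraries, and RT1-Db2 had 52 counts in XBS 5 and 3 to 16 in the others. A count of 0 allows up to 3 counts, which is 0.193 to 0.25 CPM in these libraries, counting error only.

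None of the 11 tested class II genes passed the test. Their log2 fold changes were above 0 for 9, at 0.06 for RT1-DMb to 0.51 for RT1-DOa, and below 0 for 2, at -0.09 for RT1-Ba and -0.82 for RT1-Ha. For Cd74, RT1-Bb, Ciita and Ctss, MOD 5 stood within or above the range of XBS, while MOD 1 to 4 lay below it. Cd74, the invariant chain, had 2232, 1896, 2576, 2159 and 2166 CPM in XBS 1 to 5, against 1785, 1664, 1669.5, 1762 and 2757 CPM in MOD 1 to 5. MOD 5 was the highest of all 10 libraries, and the other MOD libraries were all below the lowest XBS library. The mean was 2206 ± 244 CPM in XBS and 1928 ± 467 CPM in MOD (SD, n = 5 each), a log2 fold change of 0.19 ± 0.15 (SE; edgeR adjusted p = 0.576).

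RT1-Da, the alpha chain of the RT1-D molecule, had 674, 532, 807, 645 and 709.7 CPM in XBS, against 483, 451, 494, 543 and 907 CPM in MOD. Its pattern was that of Cd74, with MOD 5 highest of the 10 and MOD 4 slightly above XBS 2. Its log2 fold change was 0.23 ± 0.19 (SE; edgeR adjusted p = 0.612), from means of 673 ± 100 CPM in XBS and 575 ± 188 CPM in MOD (SD, n = 5 each). RT1-Bb, the beta chain of RT1-B, had 461, 409.8, 504, 401 and 409 CPM in XBS, against 375, 256, 299.7, 305 and 506 CPM in MOD. Again MOD 5 was the highest library and the other MOD libraries lay below every XBS library. The log2 fold change of RT1-Bb was 0.33 ± 0.16 (SE; edgeR adjusted p = 0.419). RT1-Db1, the beta chain of RT1-D, had 134, 141, 155, 113 and 81.4 CPM in XBS, against 106, 102, 54.4, 93.8 and 129 CPM in MOD. Here XBS 5 and MOD 3 were the lowest libraries of their groups and the groups overlapped widely (log2 fold change 0.36 ± 0.22, SE; edgeR adjusted p = 0.485).

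Ciita, the master regulator of class II transcription, had 69.7, 63.7, 81.9, 74.8 and 85.8 CPM in XBS, against 50.6, 46.4, 45.9, 46.9 and 90.01 CPM in MOD. MOD 5 was the highest of the 10, and MOD 1 to 4 lay below every XBS library. The means were 75.2 ± 8.92 CPM in XBS and 55.9 ± 19.1 CPM in MOD (SD, n = 5 each), 1.34-fold higher in XBS (log2 fold change 0.43 ± 0.19, SE; edgeR adjusted p = 0.366). Without MOD 5 the log2 fold change of Ciita was 0.66 with an edgeR adjusted p of 0.0428, the lowest over the settings tried, whose highest was 0.641. Leaving out the highest MOD library raises the fold change by itself, so this p is not read as a call. Ctss, the cathepsin that trims the invariant chain, had 112, 114, 153, 87.1 and 91.8 CPM in XBS, against 73.5, 81.2, 68.04, 72.4 and 111 CPM in MOD. MOD 5 overlapped XBS, and the other MOD libraries lay below every XBS library (log2 fold change 0.46 ± 0.17, SE; edgeR adjusted p = 0.309). RT1-DOb, a chain of the DO molecule that inhibits peptide exchange, averaged 26.5 ± 4.9 CPM in XBS and 19.5 ± 5.57 CPM in MOD (SD, n = 5 each; log2 fold change 0.45 ± 0.20, SE; edgeR adjusted p = 0.366). Its partner RT1-DOa averaged 20.7 ± 4.22 CPM in XBS and 14.5 ± 6.73 CPM in MOD (SD, n = 5 each; log2 fold change 0.51 ± 0.28, SE; edgeR adjusted p = 0.448).

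**Figure D2:**
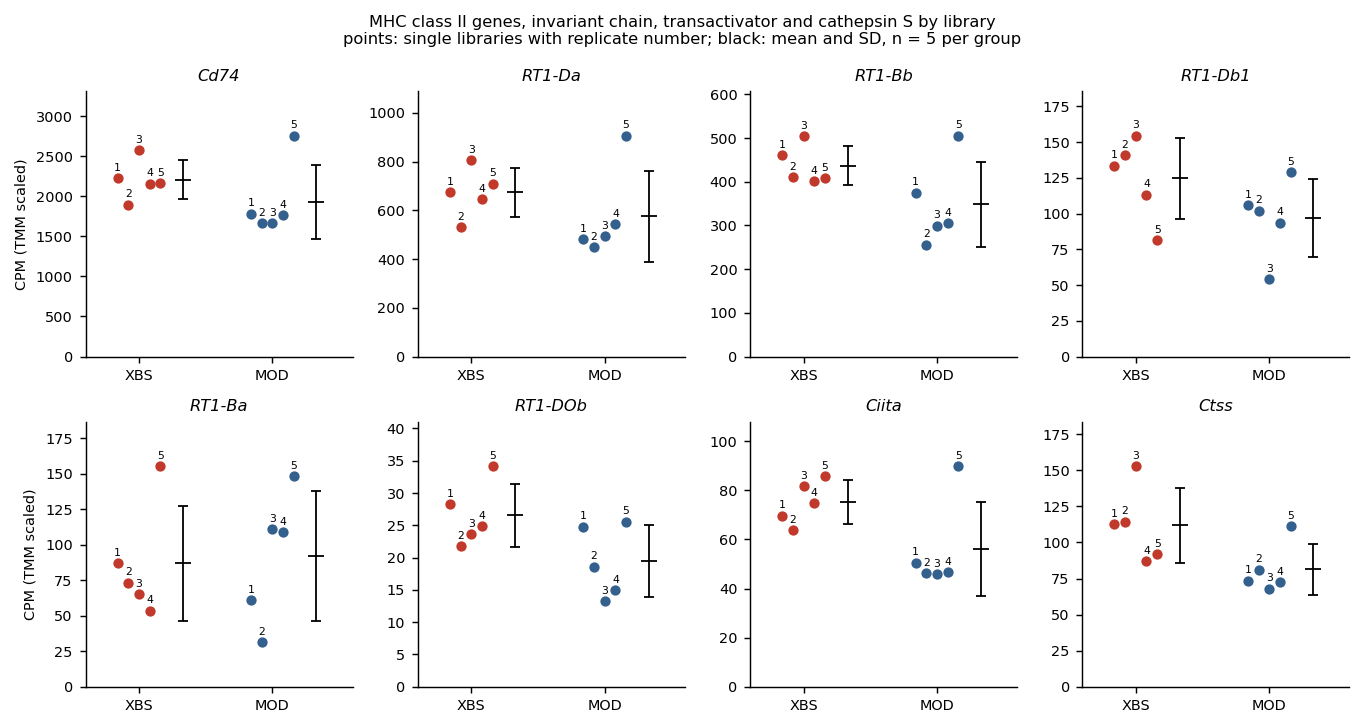
Each panel plots 1 gene in CPM with 1 point per library (number: replicate), XBS left and MOD right, and black bars for mean and SD (n = 5 each). MOD 5 is the highest MOD library in every panel, and for RT1-Ba MOD 3 and MOD 4 stand high too.

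Across the 11 tested class II genes, MOD 5 was the highest MOD library for 10, where it was for 21.9% of all genes tested. MOD 5 was picked by its values for these same genes. The 10 are therefore a description, and their number is not compared with that share. Leaving MOD 5 out raised the median log2 fold change of the class II genes to 0.49, which follows from MOD 5 being highest of MOD for 10 of them. The summed dendritic cell markers stood at 159 CPM in MOD 5 and 132 to 145 CPM in MOD 1 to 4, and those of monocytes and interstitial macrophages at 642 CPM in MOD 5 and 450 to 599 CPM in MOD 1 to 4. In the dendritic list, Flt3 was highest of MOD in MOD 5 at 31.2 CPM, whereas Itgax and Ccr7 were not, at 30.7 and 17.6 CPM. Alveolar type 2 markers too summed highest in MOD 5, at 30805 CPM, against 23919 to 25924 CPM in MOD 1 to 4. B cell markers summed to 99.6 CPM in MOD 5, within the 86.1 to 164 CPM of MOD. The part of these cell types in the class II values was not tested, and in lung tissue fewer cells of a type and less RNA per cell cannot be told apart.

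RT1-Ba, the alpha chain that pairs with RT1-Bb, did not follow its partner. It had 87.2, 73.3, 65.0, 53.6 and 156 CPM in XBS, against 61.2, 31.6, 111, 109 and 149 CPM in MOD, a log2 fold change of -0.09 ± 0.40 (SE; edgeR adjusted p = 0.942). The high libraries were XBS 5, MOD 5, MOD 3 and MOD 4. The ratio of RT1-Ba to RT1-Bb per kb was 0.383 to 0.563 in XBS 1 to 4 and 1.13 in XBS 5, against 0.485 in MOD 1, 0.367 in MOD 2 and 0.874 to 1.1 in MOD 3 to 5. The ratio of Cd74 to RT1-Da per kb, in contrast, varied little, at 5.92 ± 0.344 in XBS and 6.14 ± 0.513 in MOD (SD, n = 5 each). RT1-Ha, the locus that corresponds to human DP, had 2 to 29 counts per library (log2 fold change -0.82 ± 0.48, SE; edgeR adjusted p = 0.469).

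The RT1-DM genes, whose product exchanges the invariant chain fragment for peptide, had few counts. RT1-DMb had 11 to 35 counts per library and averaged 1.35 ± 0.633 CPM in XBS and 1.29 ± 0.352 CPM in MOD (SD, n = 5 each; edgeR adjusted p = 0.9499). The table lists a second gene described as a class II M alpha chain and one described as an M beta chain, neither with an RT1 name. Summed with these, DMa stood at 1.15 ± 0.17 CPM in XBS and 0.823 ± 0.198 CPM in MOD, and DMb at 2.6 ± 0.838 CPM in XBS and 2.4 ± 0.75 CPM in MOD (SD, n = 5 each). Per kb and over the 10 libraries, RT1-DMa stood at 0.221, RT1-DMb at 0.758 and the other copies at 0.347 and 0.492 CPM per kb. RT1-Db1, the lowest of the tested classical chains RT1-Da, RT1-Db1, RT1-Ba and RT1-Bb, stood at 34.7 CPM per kb. The sources used here do not say how reads matching more than 1 copy were counted. If such reads were left out, the sums lack them too, so these levels are not read as low DM RNA.

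Class I genes varied between libraries of a group by very different amounts, and none of the 19 tested passed the test. The light chain varied little: B2m had 2690.4, 3308, 3417, 2588 and 3128 CPM in XBS, against 2645, 3242, 2727, 2921 and 2624 CPM in MOD. The groups covered nearly the same range, with means of 3026 ± 370 CPM in XBS and 2832 ± 258 CPM in MOD (SD, n = 5 each) and a log2 fold change of 0.10 ± 0.11 (SE; edgeR adjusted p = 0.7096). Nlrc5, the class I transactivator, had 32.5, 34.1, 35.1, 25.7 and 35.3 CPM in XBS, against 23.8, 33.9, 33.1, 26.4 and 23.4 CPM in MOD. Each group held libraries near 25 and near 34 CPM, and the log2 fold change was 0.21 ± 0.13 (SE; edgeR adjusted p = 0.498).

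The classical locus moved over a much wider range. RT1-A2 had 146, 234, 275.5, 199.5 and 20.9 CPM in XBS, against 147, 114, 20.6, 32.0 and 95.7 CPM in MOD. XBS 5, MOD 3 and MOD 4 were the lowest libraries, and the lowest XBS library lay beside the lowest MOD library. The means were 175 ± 98.5 CPM in XBS and 81.8 ± 54.0 CPM in MOD (SD, n = 5 each), 2.14-fold higher in XBS with a log2 fold change of 1.10 ± 0.65 (SE; edgeR adjusted p = 0.474). RT1-A1, whose gene body contains RT1-A2 in the table, had 71.2, 85.9, 147, 103 and 27.7 CPM in XBS, against 68.2, 69.4, 23.7, 37.4 and 60.6 CPM in MOD. The same 3 libraries were lowest (log2 fold change 0.74 ± 0.41, SE; edgeR adjusted p = 0.449). The ratio of RT1-A2 to RT1-A1 per kb was 1.23 in XBS 5, 1.42 in MOD 3 and 1.39 in MOD 4, and 2.58 to 4.44 in the other libraries. RT1-A1 and RT1-A2 lie on chromosome 20 from 5351605 to 5421098 and from 5374985 to 5378539 in the table, for which the labels name no rat build. In the table both genes are on the plus strand, so strand alone could not separate their reads. Nor do the labels say how reads of overlapping genes, or of near-identical copies, were assigned. Such reads may have been divided between the genes.

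The 3 libraries lowest for RT1-A2 were XBS 5, MOD 3 and MOD 4. They were also the 3 lowest for RT1-A1, which overlaps RT1-A2 in the table, and for RT1-CE3 and RT1-Db1. They were so for 1.26% of all genes tested. The libraries were picked by their RT1-A2 values, so these genes are a description and their number is not compared with that share. RT1-CE3 had 5.51, 10.6, 16.2, 5.31 and 1.15 CPM in XBS, against 5.59, 9.73, 0.658, 1.93 and 4.32 CPM in MOD (log2 fold change 0.80 ± 0.71, SE; edgeR adjusted p = 0.634). RT1-CE5 was lowest in XBS 5 at 10.9 CPM and in MOD 3 at 12.1 CPM, with up to 54.5 CPM in XBS and 45.6 CPM in MOD. RT1-CE7, which overlaps RT1-CE5 in the table, had the smallest spread of the tested class I genes, at 89.5 ± 7.03 CPM in XBS and 98.7 ± 10.4 CPM in MOD (SD, n = 5 each; log2 fold change -0.14 ± 0.08, SE; edgeR adjusted p = 0.480).

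**Figure D3:**
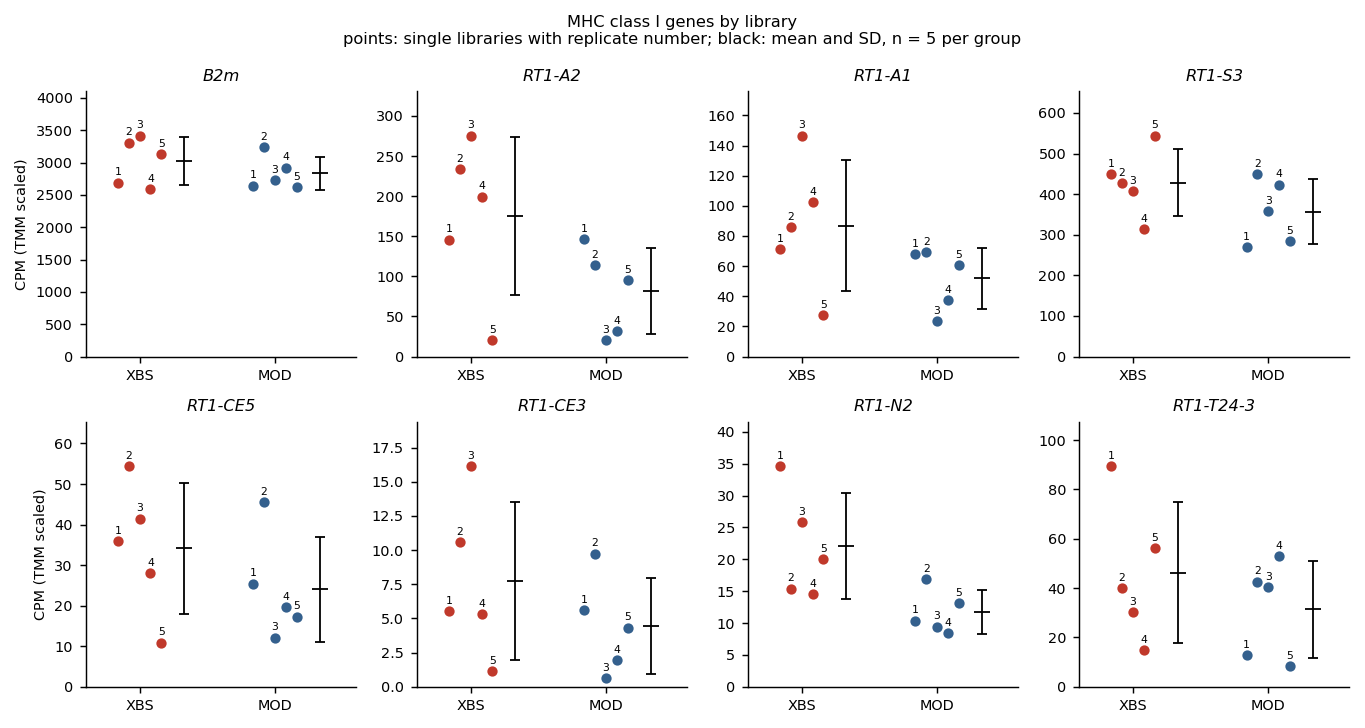
Each panel plots 1 class I gene in CPM with 1 point per library (number: replicate), XBS left and MOD right, and black bars for mean and SD (n = 5 each). XBS 5, MOD 3 and MOD 4 are low for RT1-A2, RT1-A1 and RT1-CE3, and RT1-T24-3 has another order, while B2m varies little.

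RT1-S3, the most abundant RT1 class I locus, had 449, 426.5, 408, 315 and 544 CPM in XBS, against 269, 449, 359, 423 and 285 CPM in MOD. Its lowest libraries were XBS 4, MOD 1 and MOD 5, a different set from RT1-A2, and the groups overlapped (log2 fold change 0.26 ± 0.17, SE; edgeR adjusted p = 0.513). RT1-T24-3 had its lowest values in the same 3 libraries, at 14.9 CPM in XBS 4, 12.8 CPM in MOD 1 and 8.29 CPM in MOD 5, with 30.2 to 89.6 CPM in the other XBS and 40.5 to 52.8 CPM in the other MOD libraries. RT1-T24-4 had 163, 254, 296, 202 and 146 CPM in XBS, against 273, 216, 180.4, 239 and 208 CPM in MOD, a log2 fold change of -0.08 ± 0.19 (SE; edgeR adjusted p = 0.884). Its extremes both lay in XBS, and all MOD libraries lay within them.

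The smallest p among the 37 was that of RT1-N2, a nonclassical class I locus. It had 34.7, 15.4, 25.9, 14.5 and 20.01 CPM in XBS, against 10.4, 16.9, 9.44, 8.38 and 13.2 CPM in MOD. Only MOD 2 reached into the range of XBS, above XBS 2 and XBS 4. The means were 22.1 ± 8.35 CPM in XBS and 11.7 ± 3.45 CPM in MOD (SD, n = 5 each), 1.89-fold higher in XBS with a log2 fold change of 0.92 ± 0.27 (SE; edgeR adjusted p = 0.209, DESeq2 adjusted p = 0.0410, range over all settings 0.0410 to 0.457). Its neighbour RT1-N3 had 36.4, 45.1, 52.0, 36.4 and 39.9 CPM in XBS, against 33.3, 37.85, 30.3, 29.2 and 36.97 CPM in MOD. The upper MOD libraries, MOD 2 and MOD 5, overlapped the lower XBS libraries (log2 fold change 0.32 ± 0.12, SE; edgeR adjusted p = 0.302). RT1-M3-1, whose mouse counterpart presents formylated peptides, stood at 30.7 to 34.5 CPM in XBS, against 27.1 to 49.7 CPM in MOD (log2 fold change -0.27 ± 0.15, SE; edgeR adjusted p = 0.452). The remaining tested class I loci did not pass the test either: RT1-CE10 and RT1-CE4 had log2 fold changes of 0.34 and 0.22, RT1-M6-1 and RT1-M6-2 of 0.82 and 0.52, RT1-T24-3 and RT1-CE5 of 0.55 and 0.51, and RT1-M2 and RT1-T24-1 of -0.59 and -0.85, with edgeR adjusted p between 0.437 and 0.760.

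Summed over the RT1 class I loci, the level was 1355 ± 212 CPM in XBS and 1102 ± 178 CPM in MOD, and without RT1-A1 and RT1-A2 it was 1093 ± 115 CPM in XBS and 969 ± 158 CPM in MOD (SD, n = 5 each). Another gene described as a class I antigen, LOC103690108 at chromosome 20 from 3791407 to 3794027, has no RT1 name and was looked at after its values were seen. It had 54.2, 116, 84.5, 73.8 and 145 CPM in XBS, against 115, 259, 187, 283 and 185 CPM in MOD. Its log2 fold change was -1.12 ± 0.29 (SE), with adjusted p = 0.176 by edgeR and 0.00780 by DESeq2 (0.00780 to 0.408 over all settings). With it the class I sum was 1449.6 ± 203 CPM in XBS and 1308 ± 217 CPM in MOD (SD, n = 5 each). A further gene described as class I without an RT1 name, AABR07044364.1, had 20 to 77 counts per library and is not in these sums.

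The 7 genes that cut, carry and load class I peptides had log2 fold changes from -0.26 to 0.12, and none passed the test. Tap1, a chain of the peptide transporter, had 131, 151, 153, 123 and 146 CPM in XBS, against 122, 148, 139, 144 and 107 CPM in MOD. The groups overlapped almost fully (log2 fold change 0.09 ± 0.10, SE; edgeR adjusted p = 0.701). Psmb8, an immunoproteasome subunit, had 31.6, 35.5, 48.02, 39.0 and 40.5 CPM in XBS, against 29.3, 49.7, 39.6, 46.4 and 35.5 CPM in MOD. MOD held both the highest and the lowest library (log2 fold change -0.04 ± 0.15, SE; edgeR adjusted p = 0.921). The other immunoproteasome subunits Psmb9 and Psmb10 had log2 fold changes of -0.01 ± 0.12 and -0.12 ± 0.10 (SE; edgeR adjusted p = 0.980 and 0.607). Tap2, the other transporter chain, had 0.12 ± 0.17 (SE; edgeR adjusted p = 0.793), from 4.8 to 7.48 CPM in XBS, against 4.87 to 6.71 CPM in MOD. Tapbp, which encodes tapasin, had -0.26 ± 0.16 (SE; edgeR adjusted p = 0.486), and the peptide-trimming enzyme Erap1 had -0.08 ± 0.15 (SE; edgeR adjusted p = 0.845). Per kb, Psmb9 over the constitutive subunit it replaces, Psmb6, was 0.657 to 0.828 in XBS and 0.563 to 0.679 in MOD. Psmb8 over Psmb5 was 0.894 ± 0.203 in XBS and 0.841 ± 0.157 in MOD, and Psmb10 over Psmb7 was 3.85 ± 0.713 in XBS and 4.07 ± 0.75 in MOD (SD, n = 5 each).

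The spread between libraries of 1 group, taken as the pooled SD of log2(CPM + 0.5), was compared with that of the 11911 tested genes with a mean of at least 5 CPM, whose median spread was 0.19 and whose 90th percentile was 0.42. Of the 37 genes, 31 reached 5 CPM, and 10 of these were above that 90th percentile. The median spread at 5 CPM or more was 0.46 over 15 class I genes, 0.33 over 9 class II genes and 0.22 over 7 antigen processing genes. RT1-A2 had a spread of 1.37, larger than that of 99.6% of these genes. RT1-CE3 followed at 1.24 and RT1-T24-3 at 1.07, then RT1-CE5 and RT1-A1 at 0.79 each and RT1-Ba at 0.75. At the other end RT1-CE7 had 0.13 and B2m 0.16, less than the median gene. Overlapping bodies in the table joined 9 of the 43 genes in 10 pairs, among them RT1-A1 with RT1-A2 and RT1-CE5 and RT1-CE3 with RT1-CE4.

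**Figure D4:**
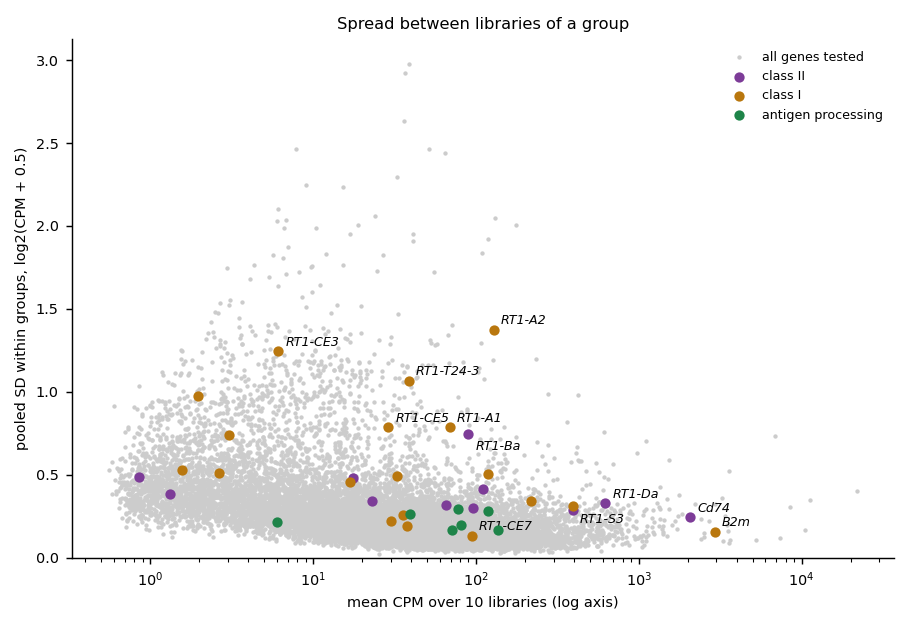
Each point is 1 tested gene, with its mean CPM over the 10 libraries on a log axis against its pooled SD within groups on the log2(CPM + 0.5) scale; grey points are all genes tested. RT1-A2 (1.37), RT1-CE3 (1.24) and RT1-T24-3 (1.07) stand high for their level, and RT1-CE7 (0.13) and B2m (0.16) lie low.

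**Figure D5:**
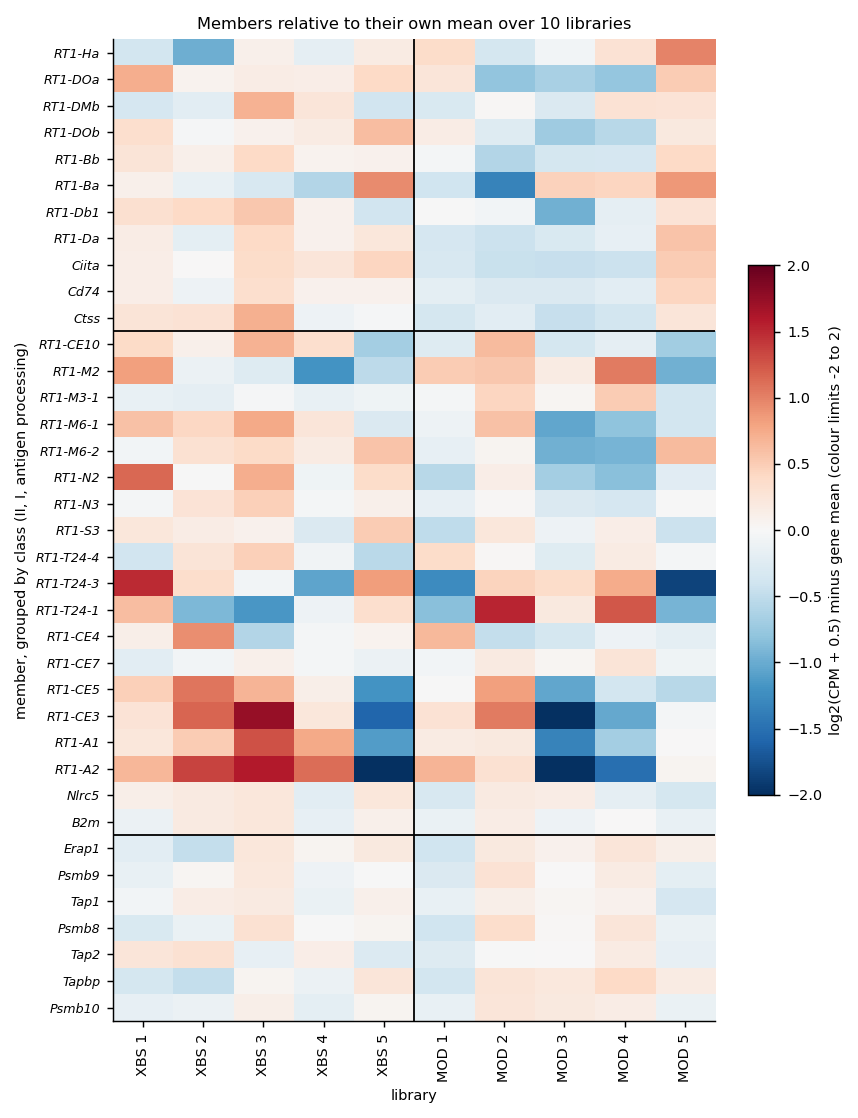
Rows are the 37 tested genes and columns the libraries, XBS left and MOD right; colour is log2(CPM + 0.5) minus the gene's mean over the 10 libraries, with the colour limits given beside the scale. MOD 5 is red in the class II rows, and XBS 5, MOD 3 and MOD 4 are blue for RT1-A1, RT1-A2 and RT1-CE3.

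The genes around these pathways were taken from 7 lists, some of which hold genes named above. Over the lists 55 genes were tested, of which edgeR called 0, DESeq2 0 and limma voom 0, and 10 had an unadjusted p under 0.05, where 13.2% of all genes tested had one. The counts of log2 fold changes above 0 below stand beside 51.9% of all genes tested. Of 9 tested genes of class II loading and sorting, 8 had a log2 fold change above 0 (median 0.15), among them the lysosomal protease Ctsd at 0.44 (edgeR adjusted p = 0.360). Of 7 tested genes of class II transcription, 6 were above 0 (median 0.08), among them the Y box factor subunit Nfyc at 0.19 (edgeR adjusted p = 0.421), and Rfxap had 0 counts in every library. Of 10 tested genes of class I peptide loading, 2 were above 0 (median -0.14), and the chaperone Canx stood at -0.14 (edgeR adjusted p = 0.480). Of 6 tested proteasome genes outside the immunoproteasome, 2 were above 0 (median -0.05), with Psmb6 at -0.24 and the activator Psme3 at 0.16 (edgeR adjusted p = 0.350 and 0.519). Psme1 had 0 counts in every library. Whether reads of Rfxap and Psme1 were lost in alignment or counting was not tested. Their 0 counts are therefore not read as absent RNA.

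Among 6 class I-like genes outside RT1, 2 were above 0 (median -0.04), the iron regulator Hfe at 0.23 and the neonatal Fc receptor Fcgrt at 0.07 (edgeR adjusted p = 0.458 and 0.717). All 4 tested costimulation genes were above 0 (median 0.17), with the checkpoint ligand Cd274 at 0.20 and the receptor Cd40 at 0.14 (edgeR adjusted p = 0.581 and 0.602). Of 13 tested interferon gamma receptor and response genes, 12 were above 0 (51.9% of all genes tested; list median 0.21), 6 had an unadjusted p under 0.05 (13.2% of all genes tested), and edgeR called 0. Ifngr2, a receptor chain, had 73.5 to 85.0 CPM in XBS, against 58.8 to 72.03 CPM in MOD, with no overlap, as for 2.74% of all genes tested (log2 fold change 0.23 ± 0.08, SE; edgeR adjusted p = 0.256). Stat2, a signal transducer of the interferon response, averaged 163 ± 17.0 CPM in XBS and 136.5 ± 8.7 CPM in MOD (SD, n = 5 each; edgeR adjusted p = 0.246).

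Markers of the cells that carry MHC class II, and of the other cells of the lung, were summed per library. Dendritic cell markers summed to 146 to 178 CPM in XBS, against 132 to 159 CPM in MOD, B cell markers to 128 to 227 CPM in XBS, against 86.1 to 164 CPM in MOD, and alveolar macrophage markers to 235 to 391 CPM in XBS, against 251 to 297 CPM in MOD. Monocyte and interstitial macrophage markers summed to 628 to 845 CPM in XBS, against 450 to 642 CPM in MOD, and all 8 tested ones had a log2 fold change above 0 (median 0.43). T cell markers summed to 204 to 263 CPM in XBS, against 155 to 206 CPM in MOD. Of 9 tested ones, 8 had a log2 fold change above 0 (median 0.24). Cd4 had the highest level, with means of 95.4 CPM in XBS and 82.4 CPM in MOD. Looked at after their values were seen, Cd3d, Cd3g and Cd247 had log2 fold changes of -0.07, 0.05 and 0.05, against 0.24 for Cd3e and 0.90 for Cd8a. Alveolar type 1 markers summed to 2456 to 4033 CPM in XBS, against 3907 to 4589 CPM in MOD, and endothelial markers to 2331 to 3589 CPM in XBS, against 3328 to 4798 CPM in MOD. The ranges of XBS and MOD overlapped for all 14 lists, with NK cell markers at 82.0 to 168 CPM in XBS, against 93.9 to 121 CPM in MOD, neutrophil markers at 224 to 749.7 CPM in XBS, against 213 to 414 CPM in MOD, club cell markers at 2008 to 8454 CPM in XBS, against 7324 to 11606 CPM in MOD, and ciliated cell markers at 349 to 840.4 CPM in XBS, against 587 to 687 CPM in MOD. Thymus and lymph node markers summed to 155 to 315 CPM in XBS, with the highest value in XBS 5, and to 125 to 185 CPM in MOD. Epithelial keratins summed to 98.1 to 168 CPM in XBS, against 162 to 219 CPM in MOD. Of the 85 marker genes tested over 14 lists, edgeR called 0, limma voom 0 and DESeq2 5 (2.58% of all genes it gave an adjusted p), and 18 had an unadjusted p under 0.05 (13.2% of all genes tested). The 5, named after their values were seen, were the dendritic cell marker Itgax and the macrophage marker C1qb, with DESeq2 log2 fold changes of 0.66 and 0.51, and the alveolar type 1 markers Rtkn2 and Akap5 and the keratin Krt19, with -0.53, -0.73 and -0.65. None of the marker genes had 0 counts in every library. The part of these cell types in the MHC values was not tested.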

How the data were processed

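Total RNA of rat lung was isolated with Trizol and sequenced as messenger RNA libraries, per the labels' protocols. The table that the authors deposited gives, per the file headers, 2 columns a library. One holds the read count, whole and not normalized. The other holds the authors' FPKM, which could be recomputed from the count, the gene length and the library total to within 8.82e-08 (relative) and was left aside. The submitters' processing notes name the human and mouse builds hg38, GRCh38 and mm10; the sources used here do not give the aligner, the counter, the strand setting or a rat build.

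The 14320 genes kept by filterByExpr (minimum count 10, minimum total 15; 99.921% of counts) were tested with edgeR 4.0.16 (TMM, glmQLFit and glmQLFTest, robust) in R 4.3.3, with Benjamini-Hochberg adjustment and a threshold of 0.05; the code was tested on simulated counts, where the criterion for recovered signs was relaxed after 1 called gene came out with the wrong sign. Totals were 11998979 to 15518929 counts per library. No pair of libraries within a group agreed within sampling noise (chi-square over its degrees of freedom was 9.46 or more, using genes of 20 counts or more), so each was counted separately; 8 rows had no symbol.

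The genes, the lists and the alternatives were chosen with earlier results of these data known. Values in every library are given for B2m, Cd74, Ciita, Nlrc5, Tap1, Psmb8, the 3 class II and 3 class I RT1 genes of highest mean CPM and the 4 genes of smallest p; RT1-A1, RT1-CE3, RT1-Ba and LOC103690108 were added after their values were seen. From each pathway list the 2 genes of smallest p may be named. Alternatives were DESeq2 1.42.0, limma 3.58.1 voom with sample weights, RLE and upper quartile scaling, other filters, the replicate number as a block and leaving out libraries. Same-numbered libraries of XBS and MOD were not treated as pairs.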

Additional observations from a re-analysis of the deposited data

Results flagged for a closer look

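Among 74 combinations of a tested gene and a group of 5 libraries, 7 had 1 library far from the other 4 (gap over range above 0.71 by Dixon's criterion). Chance alone picks out about 1 in 20 such groups. In 3 of the 7 the library was MOD 5 and the gene belonged to the class II pathway. Ciita stood at 90.01 CPM in MOD 5, against 45.9 to 50.6 CPM in the other MOD libraries. Cd74 stood at 2757 CPM in MOD 5, against 1664 to 1785 CPM in the others, and RT1-Da at 906.8 CPM, against 450.7 to 542.9 CPM. Of the class I loci, RT1-CE10 was highest in MOD 2 at 175.0 CPM (69.05 to 99.24 CPM in the other MOD libraries) and RT1-CE4 in MOD 1 at 48.67 CPM (21.99 to 28.72 CPM). Nlrc5 was lowest in XBS 4 at 25.74 CPM (32.55 to 35.28 CPM in the other XBS libraries), and Erap1 was lowest in MOD 1 at 87.66 CPM (123.3 to 137.3 CPM).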

How the results depend on the processing

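The count of all genes called, 11, was 348 with DESeq2, 67 with limma voom, 67 at an adjusted p under 0.1, 3 without XBS 2 and XBS 3, and 0 without MOD 4 and XBS 5, a pair left out after seeing the data (1340 genes had an unadjusted p under 0.05). Leaving out single libraries gave 4 to 15 calls (5 without MOD 2, 7 without MOD 3, 4 without MOD 4, 5 without XBS 1, and 4 without XBS 2 or XBS 3). The count of MHC and antigen presentation genes called, 0, was 1 with DESeq2 (RT1-N2). It was 0 to 1 when single libraries were left out, the 1 being Ciita without MOD 5, the highest library for Ciita. The cause was not tested. Same-numbered libraries did not all deviate together (correlations of 0.329, 0.215, -0.125, 0.0915 and 0.201, with 1 of 5 highest for its own number), so the numbers are not taken as pairs; with the replicate block 1 gene and 0 of the 37 were called. When single libraries were dropped, the medians of the log2 fold changes were 0.21 to 0.49 in class II, 0.22 to 0.37 in class I and -0.14 to 0.05 in antigen processing genes; without XBS 2 and XBS 3 the class I median was 0.15. Of 37 genes, 28 kept the sign of their fold change under every setting. Psmb9 turned from -0.01 to 0.000897 with upper quartile scaling, 0.0014 with the replicate block and 0.0362 without MOD 4 and XBS 5, and RT1-T24-4 to 0.0590 without that pair. Without XBS 2 and XBS 3, RT1-CE3 turned to -0.16, B2m to -0.0162, RT1-DMb to -0.21 and RT1-Ba to 0.10. With single libraries left out, the log2 fold change ranged from -0.18 to 0.0168 for Erap1, -0.0751 to 0.0697 for Psmb9, -0.14 to 0.0458 for Psmb8, -0.23 to 0.0332 for RT1-T24-4, -0.0491 to 0.46 for RT1-CE4, -0.23 to 0.19 for RT1-DMb and -0.41 to 0.15 for RT1-Ba. Scaling moved the median of all genes by at most 0.0092. Depth limits the 6 genes left out by the filter on low counts; with no filter all 43 were tested and edgeR called 0 (6 had an unadjusted p under 0.05).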
